A study of Mus musculus with 12 samples.

Results

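The 43 genes described here encode the glucose and lactate carriers of the plasma membrane and the enzymes of glycolysis, gluconeogenesis, the pentose phosphate pathway and glycogen turnover. They were chosen by symbol, as the probes of a whole-genome mouse array whose gene name is one of the 43, with older symbols matched through accessions. They had 64 of the 55681 probes, and 39 of the 43 passed the filter on dim signals, among 18104 genes tested. Hk2, Pgam2, Eno2 and Fbp2 did not pass it.

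The livers were those of F2 males of the C3H/HeN strain at about 74 weeks of age. The 12 arrays form 4 groups of 3. Within the arsenite line these are tumours, non-tumour liver and liver labelled normal, and within the control line non-tumour liver. Pregnant F0 females of the arsenite line had 85 ppm of sodium arsenite in their water between gestation days 8 and 18, whereas those of the control line drank tap water; F1 and F2 mice received no arsenite, and F1 mice were mated at 10 weeks. Tumours of the control line were not analysed here, so a change with tumour and a change with tumour in an exposed line cannot be told apart.

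Hepatocytes take up glucose through Slc2a2 and trap it by phosphorylation. They store it as glycogen, burn it to pyruvate, or run the route backwards, ending with glucose-6-phosphatase, to release glucose into blood. The pentose phosphate pathway branches off at glucose-6-phosphate and yields NADPH and ribose phosphate. Many steps have several isozymes, and adult hepatocytes are known for liver forms (Slc2a2, Pklr, G6pc and Pygl among them) that differ in regulation from those of other tissues.

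Levels are log2 signals with the 75th percentile of each array set to 0, so a negative level is dimmer than that percentile. They compare arrays for 1 probe and not probes with each other. Each array had 24043 to 27838 spots well above background. Correlations over all genes tested were 0.904 to 0.933 between a tumour and another array, 0.982 to 0.987 between tumours and 0.986 to 0.993 between arrays outside the tumours. Tumours were hybridised on a slide of their own and normal livers on another, while both non-tumour groups shared a slide; in every tumour comparison slide and group therefore cannot be told apart. Samples are numbered 1 to 3 within a group, and the labels do not say whether each is a separate mouse, so p-values measure the spread between these samples, which may be technical. Hepatocyte markers such as Alb, Ttr and Apoa1 were well above background on all arrays. Other cell types' markers moved with the tumours: the summed linear signal of bile duct markers was 35.6 to 73.5 in tumours and 1.73 to 2.88 in arsenite non-tumour liver, carried by Tspan8, the 1 called of 5 tested, with Krt7 and Epcam not above background. T and NK cell markers summed to 129 to 175 in tumours and 31.0 to 58.2 in arsenite non-tumour liver, carried by Cd4. It was the 1 called higher of 5 tested, 1 was called lower, and Cd3d, Trbc2 and Cd8a were not above background. Stellate and fibroblast markers summed to 21.3 to 26.0 in tumours and 76.8 to 84.9 in that liver, with 5 of 8 lower and 2 higher. Endothelial markers summed to 58.2 to 79.5 in tumours and 99.0 to 119 there, with 4 of 9 lower and 1 higher. In that comparison 87.5% of stellate and fibroblast and 55.6% of endothelial markers were called. Over all genes 47.0% were called, 29.9% lower and 17.1% higher. The endothelial median difference was -0.14, beside -0.13 over all genes. The part of these cell type markers in the members' differences was not tested. In bulk tissue, fewer cells of a type and less RNA per cell cannot be told apart.

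The promoters of 5 genes are shown because the results on the pentose phosphate, gluconeogenic and glycogen steps turn on them: G6pdx and Pygb were higher in tumours, and G6pc, Fbp1 and Pygl were lower. Each run is the 250 bases before the gene's start from RefSeq (GRCm38.p6), read 5′ to 3′ on the gene's strand. Capitals mark TGACNNNGC, the core of the antioxidant response element, in the first 3, and ACGTG, the core shared by hypoxia response elements and many E-boxes, and TGACG, a cAMP response element half-site, in the last 2. All were searched on both strands, and no capitals overlap between motifs.
G6pdx (chrX:74428881-74429130, minus strand): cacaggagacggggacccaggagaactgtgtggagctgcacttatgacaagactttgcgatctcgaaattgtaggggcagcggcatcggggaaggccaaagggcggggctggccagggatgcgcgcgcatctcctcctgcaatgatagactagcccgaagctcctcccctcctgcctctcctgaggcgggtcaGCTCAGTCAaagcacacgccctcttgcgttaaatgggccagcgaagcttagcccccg
G6pc (chr11:101367466-101367715, plus strand): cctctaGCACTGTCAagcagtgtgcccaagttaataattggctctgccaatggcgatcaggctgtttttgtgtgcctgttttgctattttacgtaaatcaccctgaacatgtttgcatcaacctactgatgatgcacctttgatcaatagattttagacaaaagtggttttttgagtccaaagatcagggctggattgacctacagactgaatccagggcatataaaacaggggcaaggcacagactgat
Fbp1 (chr13:62888283-62888532, minus strand): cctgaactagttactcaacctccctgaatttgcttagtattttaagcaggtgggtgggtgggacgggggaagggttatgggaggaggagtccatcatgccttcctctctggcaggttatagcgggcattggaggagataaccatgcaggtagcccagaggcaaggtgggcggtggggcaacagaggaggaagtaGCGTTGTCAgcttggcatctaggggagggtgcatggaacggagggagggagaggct
Pygb (chr2:150786546-150786795, plus strand): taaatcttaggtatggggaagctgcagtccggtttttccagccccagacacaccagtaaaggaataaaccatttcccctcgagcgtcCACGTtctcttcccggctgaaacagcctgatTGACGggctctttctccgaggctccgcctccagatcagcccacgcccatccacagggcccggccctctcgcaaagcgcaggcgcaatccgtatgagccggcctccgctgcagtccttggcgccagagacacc
Pygl (chr12:70227684-70227933, minus strand): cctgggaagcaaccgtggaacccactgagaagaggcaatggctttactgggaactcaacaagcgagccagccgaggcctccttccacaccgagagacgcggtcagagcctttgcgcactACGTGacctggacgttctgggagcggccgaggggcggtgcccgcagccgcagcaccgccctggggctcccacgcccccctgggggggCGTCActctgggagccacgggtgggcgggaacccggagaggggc
TGACNNNGC was in 10.2% of all 32851 windows of this length and in those of 6 of 42 members with a window. ACGTG was in 16.6% of all windows and TGACG in 17.8%, and in windows of 16 and 9 members. The same letters thus stood before a gene that was higher and genes that were lower in tumours, and a match is a description of these letters, not a site.

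Tumours were compared with non-tumour and with normal liver of the same line, to see which enzymes differ in the tumour. Against arsenite non-tumour liver, 4 of the 39 members tested were higher and 14 lower. Over all genes tested, 17.1% were called higher and 29.9% lower, 47.0% in all. Against arsenite normal liver, 5 members were higher and 14 lower, beside 17.1% and 30.9% of all genes, 48.0% in all. The members' median difference was -0.22 against non-tumour and -0.21 against normal liver, next to -0.13 and -0.15 over all genes tested. Of all genes called against non-tumour liver 36.3% were higher, 53.6% when arrays were scaled on detected probes and 48.1% after quantile normalization, and the members then split into 8 higher and 11 lower, and 10 and 10. The 2 comparisons share the 3 tumours. G6pdx, Pgd and Pfkfb4 were higher in both, and 12 members were lower in both: Slc2a2, Gapdh, Pgk1, Eno1, Eno3, Pgls, Taldo1, Pcx, Fbp1, G6pc, Pdk1 and Pygl. Calls are an adjusted p under 0.05 by limma.

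**Figure D1:**
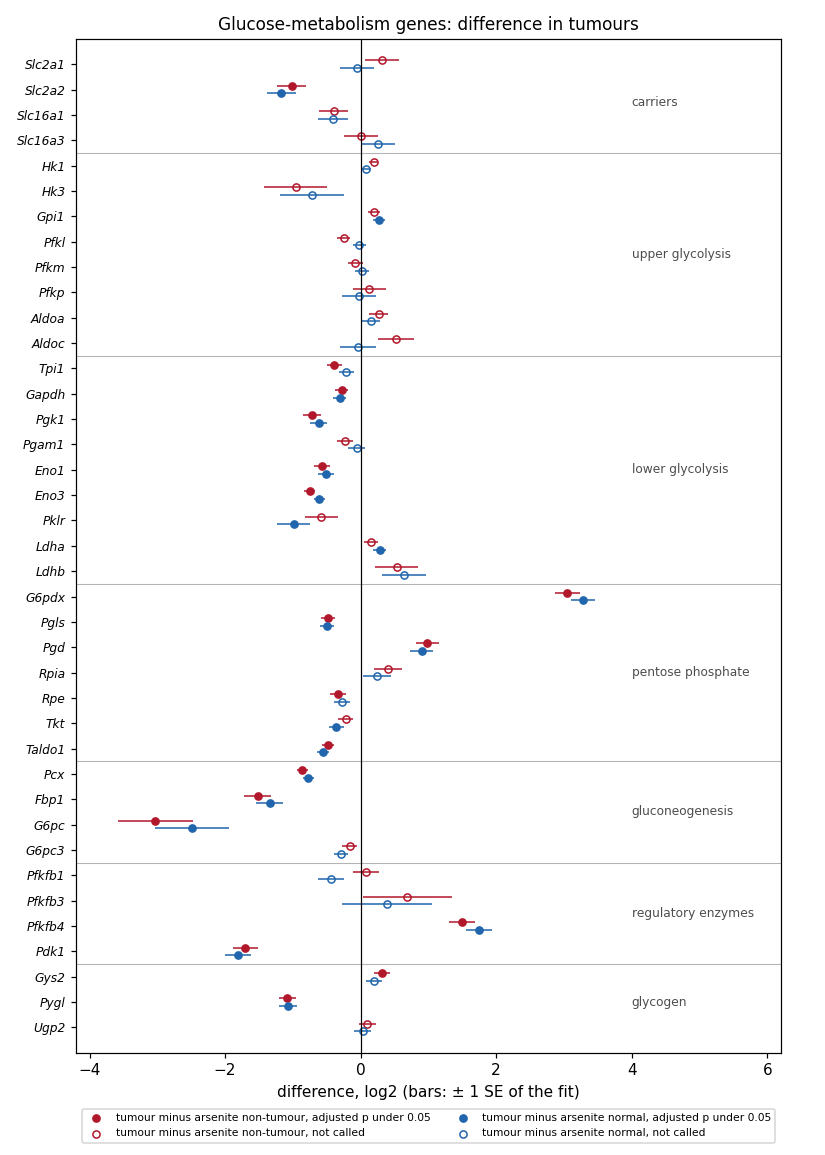
Log2 difference of each of the 39 tested members (rows, by role) in tumours against arsenite non-tumour liver (red) and arsenite normal liver (blue), with bars of 1 SE of the fit and filled points where the adjusted p is under 0.05. G6pdx lies farthest right, at 3.05 and 3.28, and G6pc farthest left, at -3.03 and -2.49.

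The oxidative arm of the pentose phosphate pathway split. G6pdx, its first and rate-limiting dehydrogenase, had levels of 3.58, 3.88 and 3.11 in tumours, against 0.34, 0.54 and 0.54 in arsenite non-tumour, 0.37, 0.13 and 0.21 in arsenite normal and 0.41, 0.20 and 0.02 in control non-tumour liver. Every tumour lay above all 9 other arrays. The difference from arsenite non-tumour liver was 3.05 ± 0.18 (SE, limma adjusted p = 8.9e-07), 8.27-fold, and from normal liver 3.28 ± 0.18 (adjusted p = 5.7e-07). Its probe lies on chromosome X, 71654949 to 71655008 (mm9, from the array annotation).

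Pgd, the second dehydrogenase of that arm, had 3.64, 3.65 and 3.55 in tumours, against 2.29, 2.98 and 2.62 in arsenite non-tumour, 2.93, 2.79 and 2.44 in arsenite normal and 2.47, 2.57 and 2.60 in control non-tumour liver. The groups did not overlap. It rose by 0.98 ± 0.17 (SE, limma adjusted p = 0.00087), 1.98-fold, against arsenite non-tumour liver. Pgls, the lactonase between the 2 dehydrogenases, fell by 0.48 ± 0.10 (SE, adjusted p = 0.0026), so the steps of this arm did not move together.

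In the non-oxidative arm, which rearranges sugar phosphates, Taldo1 (transaldolase) fell by 0.48 ± 0.09 (SE, limma adjusted p = 0.002). Tkt (transketolase) passed the test only against normal liver, at -0.36 (adjusted p = 0.019), with -0.22 against non-tumour liver (adjusted p = 0.13). Rpe, the ribulose-phosphate epimerase, was at the threshold, at -0.33 against non-tumour liver, and with equal-numbered samples as a replicate block its adjusted p was 0.099. Rpia, the isomerase beside it, differed by 0.40 (adjusted p = 0.13), and was called with the block in all 12 arrays (limma adjusted p = 0.019) but not with it in the arrays of the 2 groups alone. Of the 6 tested of 8 other pentose phosphate genes, 4 were lower and none higher against non-tumour liver: Dera -1.33, Shpk -1.21, Rbks -0.72 and Prps1 -0.36. Against normal liver 3 were lower and 1 higher. Calls made up 66.7% of the 6 in each comparison, beside 47.0% and 48.0% of all genes. Over all genes, 29.9% and 30.9% were called lower.

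Of the 4 gluconeogenic members tested, 3 were lower in tumours in both comparisons and 0 higher. Over all genes tested, 29.9% were called lower against non-tumour and 30.9% against normal liver. G6pc, the catalytic subunit that releases free glucose, had levels of 4.44, 2.51 and 3.32 in tumours, against 6.84, 6.69 and 5.84 in arsenite non-tumour, 5.63, 5.19 and 6.90 in arsenite normal and 6.58, 7.32 and 6.19 in control non-tumour liver. The tumours lay below all other arrays, and spread widely among themselves (SD 0.97, n = 3). G6pc fell by 3.03 ± 0.55 (SE, limma adjusted p = 0.0012), 8.19-fold lower, against arsenite non-tumour and by 2.49 against normal liver (adjusted p = 0.0041), where array weights gave -3.12.

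Fbp1, the fructose-1,6-bisphosphatase of liver, had 7.56, 7.96 and 8.52 in tumours, against 9.44, 9.61 and 9.55 in arsenite non-tumour, 9.44, 9.28 and 9.36 in arsenite normal and 9.61, 9.57 and 9.40 in control non-tumour liver. It fell by 1.52 ± 0.20 (SE, limma adjusted p = 0.00013) against arsenite non-tumour liver, with no overlap. Pcx, pyruvate carboxylase, which starts the route in mitochondria, averaged 6.50 ± 0.09 in tumours and 7.36 ± 0.05 in arsenite non-tumour liver (SD, n = 3 each) and fell by 0.86 (limma adjusted p = 1.9e-05). G6pc3, the widely expressed phosphatase subunit, differed by -0.16 (adjusted p = 0.27) and -0.29 (adjusted p = 0.052).

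Of 10 other gluconeogenic genes, chosen with earlier results known, 9 were tested. All 9 were lower against arsenite non-tumour liver, and 8 against normal liver, with medians of -1.12 and -1.26. The shares of all genes called lower were 29.9% and 30.9%. The gene not called against normal liver was at the threshold against non-tumour liver (limma adjusted p = 0.05), with overlapping groups. Pck1, the cytosolic phosphoenolpyruvate carboxykinase, had 5.11, 4.68 and 5.65 in tumours, against 7.62, 6.88 and 6.76 in arsenite non-tumour liver, and fell by 1.94 ± 0.34 (SE, limma adjusted p = 0.00086). Slc37a4, which carries glucose-6-phosphate to the phosphatase, fell by 1.25, Mdh1 by 1.35 and Gpt2 by 1.12. Pck2, the mitochondrial form, was well above background in 2 tumours and in 0 of the other 9 arrays, and was not tested. Of 10 hepatocyte markers, 6 were lower and 1 higher against arsenite non-tumour liver: Cps1 and Tat, both of nitrogen metabolism, differed by -2.13 and -2.63, and Alb by -0.05 (adjusted p = 0.72). The summed hepatocyte signal was 5210 to 6320 in tumours and 6160 to 6880 in arsenite non-tumour liver. The part of these markers in the lower gluconeogenic signals was not tested.

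**Figure D2:**
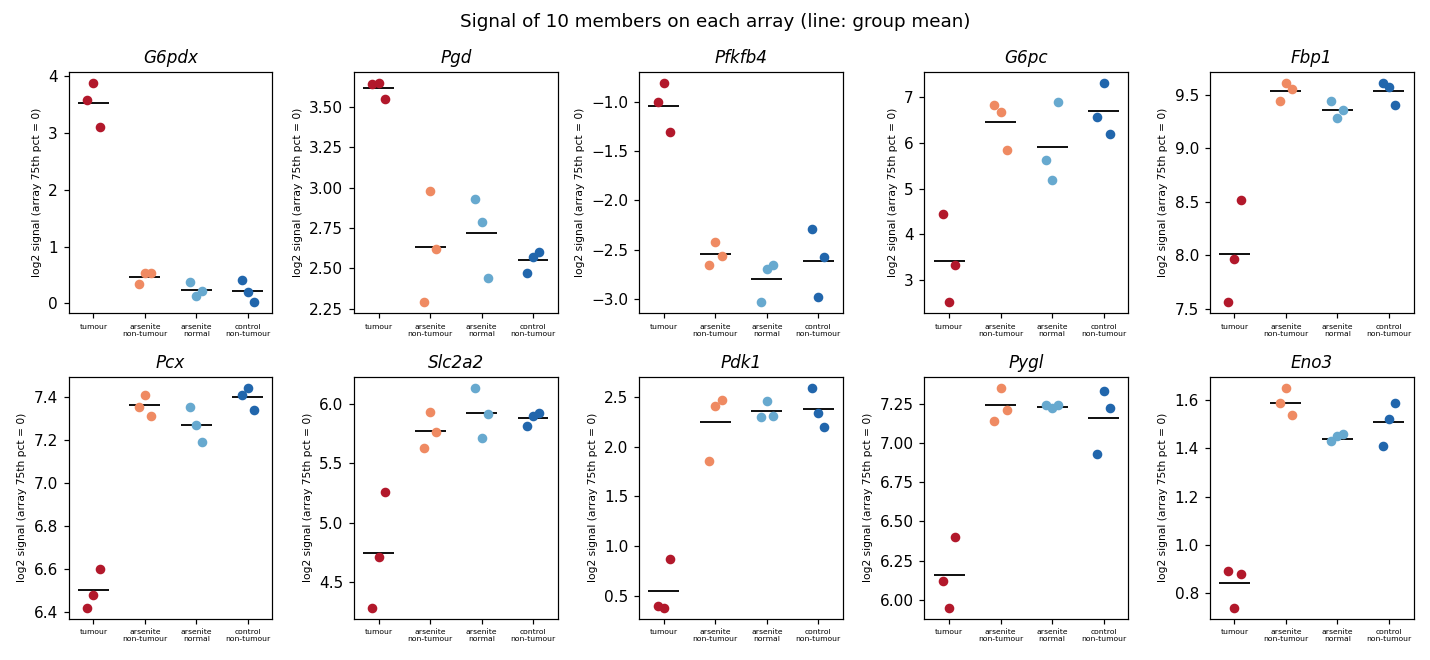
Log2 signal of 10 members on each of the 12 arrays (vertical axis; the array's 75th percentile is 0), by group, with a line at each group mean. In G6pdx, Pgd and Pfkfb4 the 3 tumours lie above all other arrays, and in the other 7 genes below them.

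Among carriers, Slc2a2, the liver glucose transporter, had 4.29, 4.71 and 5.26 in tumours, against 5.63, 5.93 and 5.76 in arsenite non-tumour and 6.13, 5.71 and 5.91 in arsenite normal liver. It fell by 1.02 ± 0.21 (SE, limma adjusted p = 0.0025) and by 1.17 (adjusted p = 0.0011), without overlap. Slc2a1, the transporter of most other cells, differed by 0.31 (adjusted p = 0.33) and -0.06 (adjusted p = 0.86). The lactate carriers Slc16a1 and Slc16a3 differed by -0.40 and 0.00 against non-tumour liver and passed no test. Of 11 other sugar and monocarboxylate carriers tested, 2 were higher and 2 lower against non-tumour liver. That is 36.4% called, a smaller share than the 47.0% of all genes. Slc16a7 was higher by 1.84 (1.06 with its probes averaged) and Slc16a6 by 1.36. The fructose transporter Slc2a5 was among the lower ones, at -1.71.

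In upper glycolysis, from glucose to triose phosphates, none of the 8 members tested was called against arsenite non-tumour liver, with a range of -0.96 to 0.52. Gpi1, the phosphoglucose isomerase, was called against normal liver alone, at 0.27 ± 0.09 (SE, limma adjusted p = 0.032). Hk1 had levels of 7.90, 7.84 and 7.82 in tumours and 7.68, 7.70 and 7.63 in arsenite non-tumour liver, a difference of 0.19 (adjusted p = 0.055). Its 3 probes, which averaged 7.76, 0.73 and -2.27 over the 12 arrays, differed by 0.19, 0.58 and 0.39. Hk3, a hexokinase of myeloid cells, had -1.53, -3.39 and -1.69 in tumours and -1.31, -1.81 and -0.60 in arsenite non-tumour liver, overlapping groups that differed by -0.96 (adjusted p = 0.12). Of 12 macrophage markers, 10 were lower in tumours against non-tumour liver and 6 against normal liver. The shares of all genes called lower were 29.9% and 30.9%. Macrophage marker sums were 52.3 to 93.8 in tumours, 145 to 196 in arsenite non-tumour and 118 to 162 in arsenite normal liver. Their part in the Hk3 signal was not tested. The phosphofructokinases Pfkl, Pfkm and Pfkp differed by -0.25, -0.08 and 0.13. A second Pfkp probe, above background in 0 tumours and on 1 arsenite non-tumour array, had -0.89, and with probes averaged Pfkp was called lower, at -0.38 (adjusted p = 0.046).

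Lower glycolysis, from triose phosphates to lactate, held 5 lower and 0 higher members of 9 tested against arsenite non-tumour liver. That is 55.6% called, all of them lower, beside 29.9% of all genes called lower and 47.0% called in either direction. Whether these steps differ from other genes was not tested. Pgk1, phosphoglycerate kinase, had 5.53, 5.78 and 5.69 in tumours and 6.23, 6.58 and 6.35 in arsenite non-tumour liver, and fell by 0.72 ± 0.13 (SE, limma adjusted p = 0.0013). Eno1, the common enolase, fell by 0.57 (adjusted p = 0.0023). Eno3, the enolase of muscle, averaged 0.84 ± 0.08 in tumours and 1.59 ± 0.05 in arsenite non-tumour liver (SD, n = 3 each) and fell by 0.75 (limma adjusted p = 4e-05). Of 8 skeletal muscle markers, 7 were not above background in any group as a whole.

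Tpi1, the triose phosphate isomerase, and Gapdh, which is often taken as a constant reference, fell by 0.39 (limma adjusted p = 0.014) and by 0.28 (adjusted p = 0.038) against arsenite non-tumour liver. With equal-numbered samples as a replicate block their adjusted p were 0.06 and 0.082. The 8 Gapdh probes all differed downwards, by -0.24 to -0.41. The array annotation places the brightest on chromosome 7 and the Pgk1 probe on chromosome 3 (mm9), whereas the genes lie on chromosomes 6 and X, so copies elsewhere in the genome may share these signals. Pklr, the liver pyruvate kinase, had 0.81, 0.57 and 0.74 in tumours, against 0.78, 1.58 and 1.51 in arsenite non-tumour and 1.80, 1.97 and 1.30 in arsenite normal liver. It fell against normal liver by 0.99 ± 0.24 (SE, adjusted p = 0.006) and differed by -0.58 from non-tumour liver (adjusted p = 0.065). Pgam1 differed by -0.23 (adjusted p = 0.14).

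For lactate dehydrogenase, Ldha rose against normal liver, by 0.28 (limma adjusted p = 0.036), and differed by 0.15 from non-tumour liver (adjusted p = 0.24). Ldhb had 1.53, 0.00 and 0.22 in tumours and 0.05, 0.24 and -0.12 in arsenite non-tumour liver, so 1 tumour stood above the rest. The same tumour had the highest level of Pkm and of Pfkfb3. Of 13 other glycolytic genes tested, 6 were lower and 1 higher against non-tumour liver. Calls made up 53.8% of them, beside 47.0% of all genes (29.9% lower and 17.1% higher). Ldhd, the D-lactate dehydrogenase, fell by 2.87 ± 0.15 (SE, adjusted p = 4.7e-07) and Gpd1, which links glycolysis to glycerol, by 0.70. Hkdc1, a hexokinase relative named after its values were seen, was the higher one, with -1.08, 1.49 and -1.08 in tumours and was at least 6.26-fold higher than in normal liver, where no array was well above background. Tumour 2 stood apart, and without it the bound was 3.45-fold.

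The regulatory enzymes set the pace of glycolysis and of pyruvate entry into mitochondria. Pfkfb4, which makes and breaks fructose-2,6-bisphosphate, had -1.0, -0.81 and -1.31 in tumours, against -2.65, -2.42 and -2.56 in arsenite non-tumour, -3.03, -2.69 and -2.65 in arsenite normal and -2.29, -2.98 and -2.57 in control non-tumour liver. It rose by 1.50 ± 0.19 (SE, limma adjusted p = 0.00011), 2.83-fold, and every tumour lay above all other arrays. These signals are dim, and with normexp background correction the rise was 0.60 (adjusted p = 0.00026), 1.52-fold. Pfkfb1, the liver form, differed by 0.08 (adjusted p = 0.77), and Pfkfb3 by 0.69 with a wide SE of 0.66, and by 0.03 without tumour 1.

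Pdk1, a kinase that switches off pyruvate dehydrogenase, had 0.40, 0.38 and 0.87 in tumours, against 1.86, 2.41 and 2.47 in arsenite non-tumour and 2.30, 2.46 and 2.31 in arsenite normal liver. It fell by 1.70 ± 0.19 (SE, limma adjusted p = 4.7e-05), with no overlap. Of 11 other genes of pyruvate oxidation tested, 8 were lower and 1 higher against non-tumour liver. Against normal liver 6 were lower and 1 higher. Over all genes, 29.9% and 30.9% were called lower, and 17.1% higher in both comparisons. Against non-tumour liver Pdp1, a phosphatase that switches the complex on, was higher by 2.47 (limma adjusted p = 4.4e-06), and by 1.27 with normexp. Pdk2 fell by 1.35, Pdhb by 0.85 and Pdp2 by 0.91. Pdk1 is a known hypoxia-response gene. Of 12 other hypoxia-response genes tested, 2 were higher against non-tumour liver (Ddit4, at 1.07, among them). In the same comparison 5 were lower (P4ha2 at -1.84, Bnip3 at -1.34 and Egln1 at -0.82 among them). That is 58.3% called, beside 47.0% of all genes. Against normal liver 2 were higher and 4 lower, with a median of -0.03. The part of hypoxia in these differences was not tested.

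In glycogen turnover, Pygl, the liver glycogen phosphorylase, had 6.12, 5.95 and 6.40 in tumours, against 7.14, 7.35 and 7.21 in arsenite non-tumour and 7.24, 7.22 and 7.24 in arsenite normal liver. It fell by 1.08 ± 0.13 (SE, limma adjusted p = 9.7e-05). Pygb, the brain form, had 1.75, 2.36 and 2.27 in tumours, against -2.06, -2.13 and -1.49 in arsenite non-tumour, -2.12, -2.07 and -2.18 in arsenite normal and -1.87, -2.27 and -1.83 in control non-tumour liver. It rose by 4.02 ± 0.21 (SE, adjusted p = 3.6e-07), 16.2-fold, and the groups lay far apart. With normexp background correction the rise was 2.99 (adjusted p = 1.9e-08), 7.94-fold.

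Gys2, the liver glycogen synthase, differed by 0.32 from non-tumour liver (limma adjusted p = 0.042, and 0.067 with the replicate block) and by 0.20 from normal liver (adjusted p = 0.17). Gys1, the muscle synthase, differed by -0.29 (adjusted p = 0.092), and Ugp2, which makes UDP-glucose, by 0.10 (adjusted p = 0.56). Of 19 other glycogen genes tested, 5 were higher and 5 lower against non-tumour liver, among them Gbe1, the branching enzyme, at -1.17, Pgm1 at -0.68 and Gyg, the primer protein glycogenin, at 0.84. Of 14 genes of fructose, galactose, mannose and hexosamine entry, 3 were higher and 6 lower, with Akr1b3 (aldose reductase) at 2.40, Galm at -1.53, Gnpda1 at -1.73 and Khk (fructokinase) at -1.11. Of 18 regulators of glucose metabolism tested, 2 were higher and 5 lower, with Usf2 at 0.90, Srebf1 at -1.23, Creb3l3 at -0.88, Crtc2 at -0.73 and Mlxipl, the glucose sensor ChREBP, at -0.53. A second Mlxipl probe differed by 0.08. Against non-tumour liver 47.0% of all genes tested were called, 17.1% higher and 29.9% lower. The shares called were 52.6% for the other glycogen genes, 64.3% for the sugar entry genes and 38.9% for the regulators. Whether these lists differ from other genes was not tested.

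Isozyme switches were sought as the difference of log2 signals between a form of other tissues and the liver form on each array. Only its change between groups is read, since probes differ in brightness. Of 22 pairs, 16 had both genes above the filter. The pairs were chosen with earlier results known, so their values are a description with no test. In 8 of the 16 the 3 tumours lay above all other arrays. Among single genes, 43.2% of all 18104 tested had the 3 tumours above or below all 9 other arrays, so such a separation was common in these data. The 5 of these pairs described here are Pygb minus Pygl, G6pc3 minus G6pc, Slc2a1 minus Slc2a2, Pfkfb4 minus Pfkfb1 and Pkm minus Pklr.

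The pair Pygb minus Pygl moved most, at -4.37, -3.59 and -4.13 in tumours and -9.60 to -8.70 with a median of -9.28 on the 9 other arrays, a difference of 5.18, and 3.99 with normexp background correction. Both genes moved, in opposite directions. G6pc3 minus G6pc followed, at -2.54, -0.39 and -1.04 in tumours and -5.07 to -2.78 elsewhere, a difference of 2.69. Here the liver form fell and G6pc3 was not called.

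The same held for Slc2a1 minus Slc2a2, at -2.64, -2.91 and -3.30 in tumours and -4.86 to -3.75 elsewhere, which differed by 1.33. In Pfkfb4 minus Pfkfb1, at 1.75 and at 0.68 with normexp, the form that is not the liver's was the one called.

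Pkm minus Pklr, the pair of pyruvate kinases, was 1.26, -0.01 and 0.07 in tumours and -1.65 to -0.04 elsewhere, a difference of 1.30. The closest arrays were a tumour at -0.01 and an arsenite non-tumour liver at -0.04, and without the first tumour the difference was 0.89. Pkm had 2.07, 0.56 and 0.81 in tumours and 0.74, 0.63 and 1.04 in arsenite non-tumour liver and was not called, at 0.34 (limma adjusted p = 0.40). The array signal of Pkm does not separate its splice forms here. Ldhb minus Ldha, Pfkp minus Pfkl, Pfkm minus Pfkl and Pfkfb3 minus Pfkfb1 had tumours within or across the range of the other arrays. Gys1 minus Gys2, Slc16a3 minus Slc16a1 and Eno3 minus Eno1 differed by -0.39, 0.64 and -0.15.

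**Figure D3:**
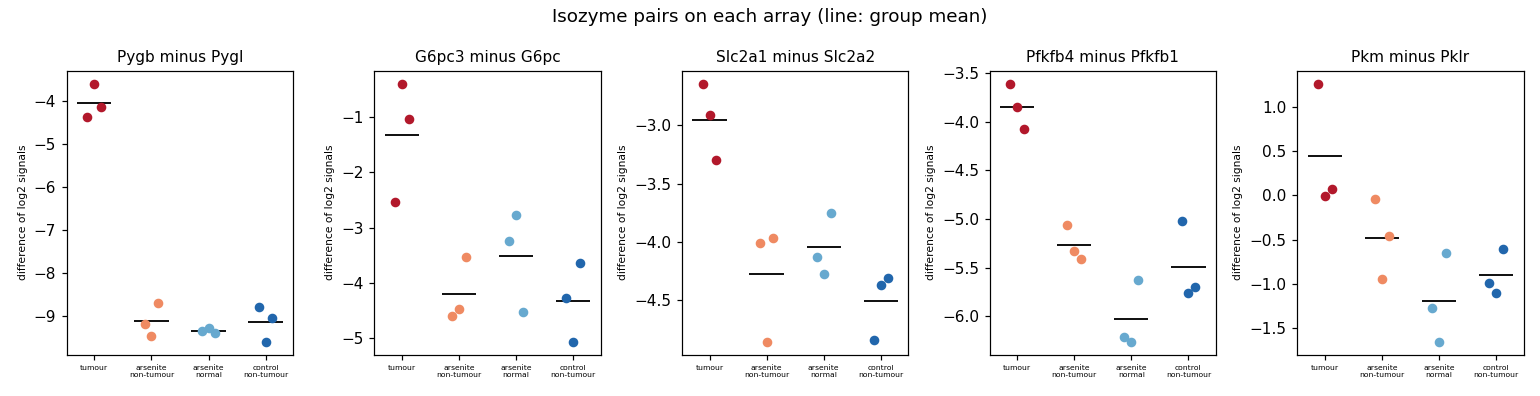
Difference of the log2 signals of 5 isozyme pairs (vertical axis) on each of the 12 arrays, by group, with a line at each group mean. In each pair the 3 tumours lie above the 9 other arrays, farthest in Pygb minus Pygl and closest in Pkm minus Pklr.

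The comparison of non-tumour livers asks what ancestral arsenite changes outside the tumour, and both groups shared a slide. Between arsenite and control non-tumour liver limma called no member, and 1 of all genes tested (0.00552%). The members ranged from -0.81 for Pfkfb3 to 0.34 for Slc16a3, and the lowest adjusted p was 0.77. At an unadjusted p under 0.05 there was 1 member and 1016 genes in all. G6pdx averaged 0.47 ± 0.11 in arsenite and 0.21 ± 0.20 in control non-tumour liver (SD, n = 3 each). Between arsenite non-tumour and arsenite normal liver limma called no gene (0.0%), and the members ranged from -0.56 for Aldoc to 0.55 for G6pc, with 2 members and 1235 genes at an unadjusted p under 0.05.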

How the data were processed

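Liver RNA of 12 samples was measured on Agilent 1-colour (Cy3) arrays. Per the file headers, the authors deposited background-subtracted spot intensity values (processed signals) with no scaling between arrays. The headers name software version 10.7.3.1, the submitters' processing notes Agilent Feature Extraction 12.0.3.1. The deposited value table holds a ratio, found to be the processed signal over the array's 75th percentile of all spots.

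Here log2 processed signals were centred on the 75th percentile of the 59305 non-control spots of the array. Probes well above background in every array of some group were kept (24148 of 55681), and the brightest probe stood for its gene. Probes were named through RefSeq accessions (27235), own symbols (3581), synonyms (565) or the file's name (24300). Differences were fitted by limma 3.58.1 (R 4.3.3), in 1 fit of 12 arrays with Benjamini-Hochberg adjustment over 18104 genes. A run on simulated arrays, with independent noise and far fewer changed genes, checked the code and not the design of these data. Where the lower group was below that mark on all its arrays, a fold is a lower bound ("at least") against the dimmest signal still above background. Exact permutation tests of isozyme pairs had been planned and are not given, since the pairs were chosen with results known. Python 3.11.15 served for tables. Arrays, not depth, limit the precision.

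Members, pairs, lists and named genes were chosen with earlier results of these data known. All members may be named. Array values were planned for those called with a log2 difference of 1 or more and for isozymes described. They are also given for some other members, such as Pgd, Pgk1, Hk1 and Hk3. Of other lists, at most 4 called genes with the smallest p per comparison may be named, and Pkm, Pck1, Pck2, Gys1, Pygb and Mlxipl always. Some results are not reported here. Residuals of equal-numbered tumour and non-tumour samples had correlations of 0.135, 0.13 and 0.225, and unequal numbers -0.15 to -0.00305. The reported fit did not pair samples, and equal numbers entered as a replicate block in alternative fits only. The labels do not say what a number marks. Alternatives were other scalings, backgrounds, filters, probe rules, blocks, weights and leaving out each sample.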

Additional observations from a re-analysis of the deposited data

How the results depend on the processing

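There were 24 alternatives. Of the 18 members called against arsenite non-tumour liver, 13 were called in every alternative that tested them. The other 5 lost the call in some (Tpi1, Gapdh, Rpe, Taldo1 and Gys2). Of 19 against normal liver, 14 were called in every alternative that tested them and 5 lost it (Gpi1, Gapdh, Eno1, Ldha and Tkt). Pfkfb4, among the 13 and the 14, was tested in 23 alternatives, as its probe did not pass the filter on all 12 arrays. Of the members not called, 11 and 7 were called under some alternative. None of the called members changed sign; Pfkp, not called, was called at -0.38 with probes averaged. The median of all genes was -0.13 against non-tumour liver as reported and 0.03 when scaled on detected probes, where 53.6% of called genes were higher, 48.1% with quantile normalization and 36.3% as reported; against normal liver these were 50.7%, 48.5% and 35.7%. Members called higher against non-tumour liver were then 8 with detected probes and 10 with quantile normalization, in place of 4; small rises and falls therefore depend on the scaling too. Against normal liver they were 3, in place of 5, with no filter, with the arrays of the 2 groups alone and with the replicate block in those arrays. Leaving out 1 sample gave 3 to 5 higher and 11 to 14 lower members against non-tumour, and 3 to 5 and 12 to 15 against normal liver; the 3 came without arsenite normal 2, arsenite normal 3 or tumour 1. With no filter 14139 genes were called against normal liver, in place of 8688, and the median of all genes there was -0.37, in place of -0.15. With the replicate block in the arrays of tumour and arsenite non-tumour liver, 3 members were higher and 11 lower, and the 4 calls lost were Tpi1, Gapdh, Rpe and Gys2; with it in all 12 arrays Rpia was called, at 0.40 (limma adjusted p = 0.019). Slide as a block could not be fitted for tumour comparisons. Signals near background limit Hk2, Pgam2, Eno2 and Fbp2.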
